A study of Mus musculus with 13 samples.

Results

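The Mir17hg cluster is a set of miRNAs, from miR-17 to miR-92a, cut from the single primary transcript of that host gene. Its 9 mature forms studied here were mmu-miR-17-5p, mmu-miR-17-3p, mmu-miR-18a-5p, mmu-miR-18a-3p, mmu-miR-19a-3p, mmu-miR-19b-3p, mmu-miR-20a-5p, mmu-miR-20a-3p and mmu-miR-92a-3p (mmu for mouse, left out of most names here), found on the array by name among 1079 mouse miRNAs. They were measured in 13 primary abdominal neuroblastomas that arose spontaneously in mice, with 1 Agilent 1-colour miRNA array per tumour. According to the series title the mice were TH-MYCN mice, in which a tyrosine hydroxylase promoter drives MYCN in the sympathetic lineage, while the design text speaks of wild-type and transgenic animals without saying which tumours came from which. The wild-type group held 6 tumours with wild-type caspase-8 from mice without metastasis to the bone marrow, and the deficient group 7 tumours with deficient caspase-8 from mice with such metastasis. Genotype and metastasis therefore changed together and cannot be told apart. The labels give neither the caspase-8 allele, nor how it was inactivated, nor the age of the mice. They call the tumours biological replicates and do not say that each came from its own mouse, so that the p values measure the spread between these tumours.

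MYC and MYCN bind the host gene of the cluster and raise its transcription, and the cluster is best known for promoting proliferation and survival in MYC-driven tumours, neuroblastoma among them. Each hairpin of the transcript yields a 5p and a 3p form, of which one usually enters the silencing complex and the other is mostly degraded. Target choice depends chiefly on the seed, the bases near the 5′ end of the mature form. The array reads mature miRNAs and measured neither MYCN nor the primary transcript.

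The mature sequences are printed because they show which members can act on the same targets and which can be hard for a probe to tell apart. They were taken from RefSeq on GRCm38.p6, where all 9 names matched, and are written 5′ to 3′ with the seed, bases 2 to 8, in capitals.
miR-17-5p: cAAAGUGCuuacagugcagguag
miR-20a-5p: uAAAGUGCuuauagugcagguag
miR-18a-5p: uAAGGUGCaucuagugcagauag
miR-19a-3p: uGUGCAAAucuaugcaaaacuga
miR-19b-3p: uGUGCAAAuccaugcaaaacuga
miR-92a-3p: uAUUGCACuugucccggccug
miR-17-3p: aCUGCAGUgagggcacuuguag
miR-18a-3p: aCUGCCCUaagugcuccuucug
miR-20a-3p: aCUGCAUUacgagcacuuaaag

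These forms fell into 7 seeds. miR-17-5p and miR-20a-5p shared one and differed at 2 of 23 bases (C1U and C12U, counted from the 5′ end, with the base of miR-17-5p first). miR-19a-3p and miR-19b-3p shared another and differed at 1 base (U11C, with the base of miR-19a-3p first). The 6 hairpins of the cluster lay in the order Mir17, Mir18, Mir19a, Mir20a, Mir19b-1 and Mir92-1 on the plus strand of chr14:115043671-115044506, a span of 836 bases. The RefSeq model of the noncoding host gene Mir17hg covered 1 of them, Mir92-1, and the other 5 lay before its annotated start. miR-19b-3p and miR-92a-3p are also encoded by Mir19b-2 and Mir92-2 on chromosome X, with the same mature sequences, so that their probes cannot tell the loci apart.

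Levels are given as log2 of the scaled signal of a miRNA. Because probes differ in brightness, a level is set only against the level of the same miRNA in other tumours. The arrays carried both groups on 2 slides, but unequally, with 2 wild-type and 5 deficient tumours on slide 1 and 4 wild-type and 2 deficient tumours on slide 2. The arrays detected 338 to 469 mouse miRNAs, and the 419 that were detected on 6 or more arrays, all 9 members included, entered the test. The 6 miRNAs listed as neural or sympathetic markers were detected on all 13 arrays. In bulk tumours, a change in the mix of cells and a change within cells cannot be told apart.

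Of the 9 members, 8 were detected in every tumour. miR-18a-3p was detected in 12, missing in wild-type replicate 2. The 7 members other than miR-18a-3p and miR-20a-3p were bright, with at least 39 of 40 spots well above background on each array. The passenger forms miR-18a-3p and miR-20a-3p were dim. Of their 40 spots, 0 to 12 were well above background for miR-18a-3p and 0 to 20 for miR-20a-3p, with none on 3 and 2 arrays. The other forms of these hairpins on the array, miR-19a-5p, miR-19b-1-5p and miR-92a-1-5p, were detected on 0 arrays.

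mmu-miR-18a-5p separated 3 tumours from the other 10. Its 6 wild-type levels were 10.54, 10.59, 9.61, 9.41, 10.35 and 9.57 in replicates 1 to 6, and its 7 deficient levels 10.53, 10.48, 10.46, 10.47, 10.59, 10.38 and 10.24 in replicates 1 to 7. Wild-type replicates 3, 4 and 6 were lower than every other tumour, and wild-type replicates 1, 2 and 5 lay within the range of the deficient tumours, apart from replicate 2, which was marginally above it. The wild-type mean was 10.01 ± 0.54 (SD, n = 6). The deficient mean was 10.45 ± 0.11 (SD, n = 7).

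The miR-19 forms, which carry much of the cluster's oncogenic activity in lymphoma models, showed a similar order. mmu-miR-19a-3p ranged from 9.52 to 10.58 with a median of 9.93 in wild-type tumours, and from 9.90 to 10.698 with a median of 10.32 in deficient tumours. Wild-type replicates 3, 4 and 6 were again the lowest, at 9.63, 9.52 and 9.65, below every deficient tumour. For mmu-miR-19b-3p the wild-type tumours ranged from 11.66 to 12.70 (median 12.25) and the deficient ones from 12.23 to 12.71 (median 12.45). Here too the same 3 wild-type tumours were the lowest, and the groups overlapped.

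The forms with the seed of miR-17, which repress inhibitors of the cell cycle such as Cdkn1a and members of the E2F family, differed in how far they spread. mmu-miR-20a-5p lay between 11.15 and 12.36 (median 11.79) in wild-type tumours and between 11.85 and 12.36 (median 11.95) in deficient ones. Its lowest tumours were wild-type replicates 4, 3 and 6, at 11.15, 11.57 and 11.59. mmu-miR-17-5p varied less, from 7.29 to 8.02 (median 7.64) in wild-type and from 7.51 to 8.17 (median 7.80) in deficient tumours. Its highest tumour was deficient replicate 1 and its lowest wild-type replicate 4, and the other tumours of both groups were intermixed.

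mmu-miR-92a-3p, whose seed differs from the rest of the cluster and which represses integrin transcripts in endothelium, had the smallest SD of the 9 members. It ranged from 10.99 to 11.65 (median 11.32) in wild-type tumours and from 11.25 to 11.65 (median 11.41) in deficient tumours. Its SD over all 13 tumours was 0.21, and 5 of the 419 tested miRNAs had a smaller one. Wild-type replicates 3, 6 and 4 were its lowest tumours.

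The 3 forms from the other arms are mostly minor products. mmu-miR-17-3p was bright, with 7.12 to 8.10 (median 7.84) in wild-type and 7.65 to 8.10 (median 7.96) in deficient tumours. miR-20a-3p was dim and spread widely, from 4.27 to 5.57 (median 5.02) in wild-type and from 4.64 to 6.06 (median 5.71) in deficient tumours, beside a floor of 4.10. Its 4 highest tumours were deficient replicates 1, 6, 4 and 5. miR-18a-3p, near background, ran from 5.08 to 5.75 (median 5.44) in wild-type and from 5.20 to 5.74 (median 5.36) in deficient tumours, with the groups intermixed.

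**Figure D1:**
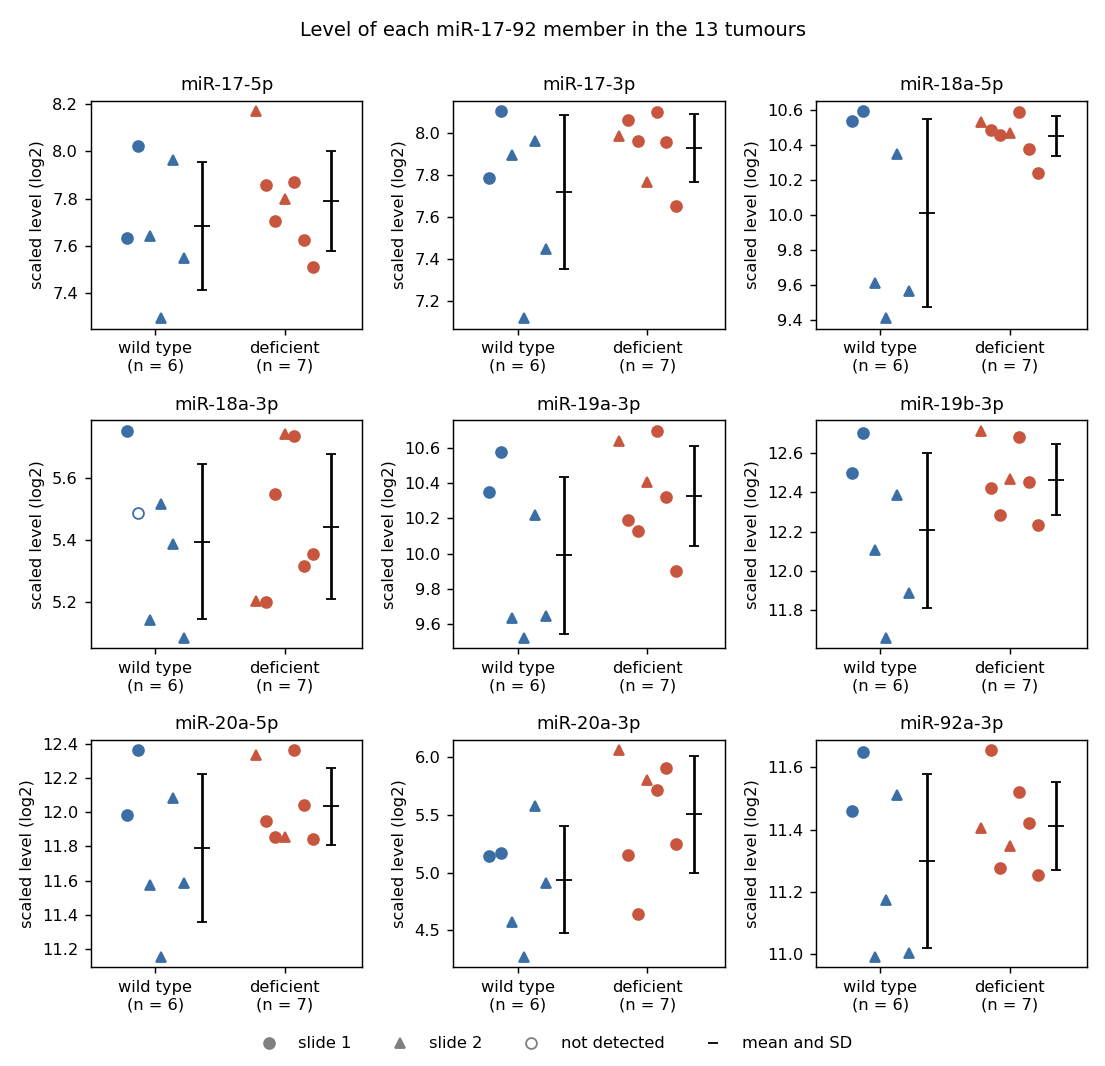
Each panel plots the scaled level (log2) of a member in the 6 wild-type and 7 deficient tumours. Circles are tumours on slide 1 and triangles tumours on slide 2, an open symbol marks a tumour in which the miRNA was not detected, and the bar is the mean with SD. For miR-18a-5p the 3 lowest triangles, wild-type replicates 3, 4 and 6, lie between 9.41 and 9.61, while every other tumour is at 10.24 or above.

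To compare tumours over the whole cluster, each member was expressed as its deviation from its own mean over the 13 tumours and the deviations were averaged. The averages of wild-type replicates 1 to 6 were 0.10, 0.27, −0.35, −0.57, 0.13 and −0.40. Those of deficient replicates 1 to 7 were 0.31, 0.08, −0.05, 0.15, 0.33, 0.13 and −0.12. Wild-type replicates 3, 4 and 6 were the lowest of the 13, with 1, 1 and 0 of the 9 members above their own mean. Deficient replicate 5 was the highest, with 9 of 9 above. The 3 low tumours were all on slide 2, which also held wild-type replicate 5 and deficient replicates 1 and 4, whose averages were above 0.

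**Figure D2:**
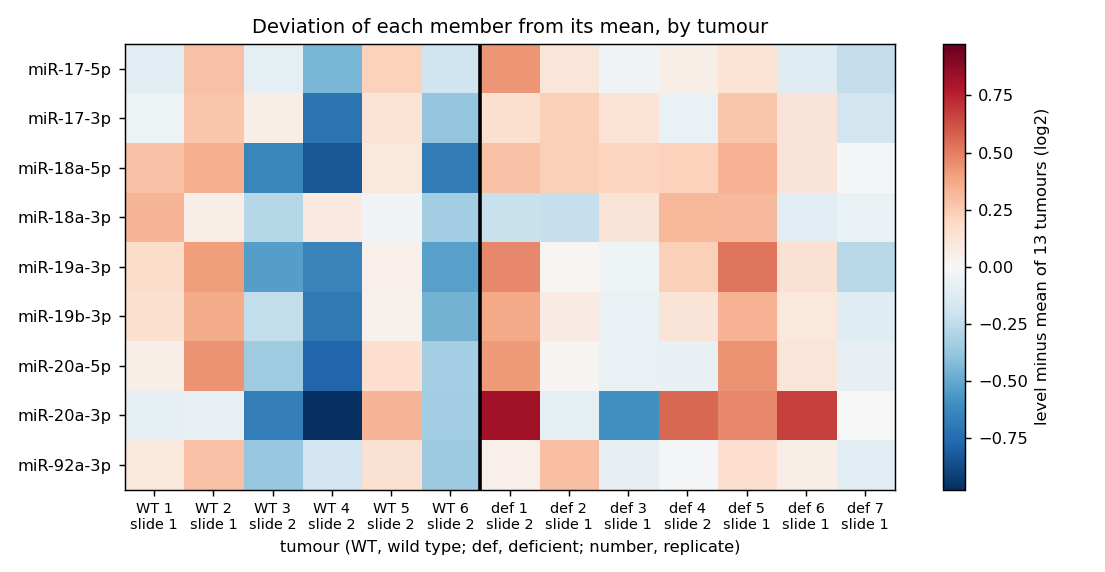
The colour gives the deviation (log2) of each of the 9 members, in rows, from its mean over the 13 tumours, in columns, with the slide under each tumour. The columns of wild-type replicates 3, 4 and 6 are blue for almost all members, with averages of −0.35, −0.57 and −0.40, and that of deficient replicate 5 is red throughout.

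The comparison of the groups asks whether the cluster differed between caspase-8-deficient tumours of mice with metastasis and tumours with the intact gene of mice without it. None of the 9 members passed the threshold in limma's test adjusted over all 419 miRNAs (0 of 9 at an adjusted p under 0.05, 0 of 9 at an unadjusted p under 0.05), beside 0 of 419 (0%) and 16 of 419 (3.82%) over all tested miRNAs. All 9 members had a higher mean in deficient tumours, where 54.2% of the tested miRNAs did. The 7 bright members vary together, so that they are not separate observations in this count. However, only 2 members did within slide 1 alone, 6 with array weights and 7 with normexp background. With 4 times the floor 7 did, and both dim arms were constant. The median difference was 0.24 over the members and 0.04 over all tested miRNAs, in log2 units and as the deficient mean less the wild-type mean. The groups overlapped for every member, while 0.239% of the tested miRNAs had groups that did not overlap.

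The differences varied between members of the cluster. They were 0.56 (SE 0.27) for miR-20a-3p and 0.44 (SE 0.22) for miR-18a-5p, both with a limma adjusted p of 0.589. For miR-18a-5p this is a ratio of 1.35, with a 95% interval from 0.977 to 1.88. The miR-19 forms differed by 0.33 (SE 0.22, miR-19a-3p) and 0.26 (SE 0.19, miR-19b-3p), and miR-20a-5p by 0.24 (SE 0.21), with limma adjusted p values of 0.629, 0.644 and 0.668. miR-17-3p had a difference of 0.21 (SE 0.18) and miR-92a-3p of 0.11 (SE 0.16). Those of miR-17-5p and miR-18a-3p were 0.11 (SE 0.17) and 0.05 (SE 0.17). The value of miR-20a-3p depended on the processing, at −0.03 with normexp background and 0.18 with the mean of log2 probe levels, and 2 of its 4 probes were at the floor on all 13 arrays. For miR-18a-3p the sign turned with normexp background, array weights and slide as a block, and for miR-17-5p and miR-92a-3p with array weights. The 95% interval of miR-92a-3p ran from −0.23 to 0.46, and that of miR-17-5p from −0.26 to 0.47. As a ratio, the interval of miR-17-5p was 0.837 to 1.39.

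The probes of the bright members gave differences of the same sign. The probe pairs for miR-20a-5p gave 0.243 and 0.245, and those for miR-18a-5p 0.380 and 0.469. They were farther apart for miR-19b-3p, at 0.112 and 0.305, and for miR-92a-3p, at 0.054 and 0.128.

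The difference between the groups is also given within each slide, and no member passed the adjusted test of a difference between slides. On slide 2 the members differed by 0.76 for miR-18a-5p, 0.77 for miR-19a-3p, 0.58 for miR-19b-3p, 0.50 for miR-20a-5p, 0.37 for miR-17-5p and 0.21 for miR-92a-3p. On slide 1 the same 6 differed by −0.14, −0.22, −0.19, −0.16, −0.11 and −0.13. With slide as a block the differences were 0.30 for miR-18a-5p, 0.62 for miR-20a-3p, 0.03 for miR-92a-3p and −0.01 for miR-18a-3p, and 8 of 9 members had a higher mean. A limma test of the slide-by-group interaction, slide 2 minus slide 1, passed for 0 of 9 members and 0% of the tested miRNAs (smallest adjusted p = 0.792 among the members). At an unadjusted p under 0.05 it held for 2 of 9 members, miR-19a-3p at 0.99 (SE 0.40) and miR-18a-5p at 0.90 (SE 0.38), where the background was 4.77%. The interaction was above 0 for 9 of 9 members and for 47.3% of the tested miRNAs, and for 7 members with normexp background. The bright members vary together (r = 0.918 for miR-18a-5p with miR-19a-3p), so that they are not separate observations in these counts. Slide 1 held only 2 wild-type and slide 2 only 2 deficient tumours, and the part of the slide in these differences was not tested further.

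**Figure D3:**
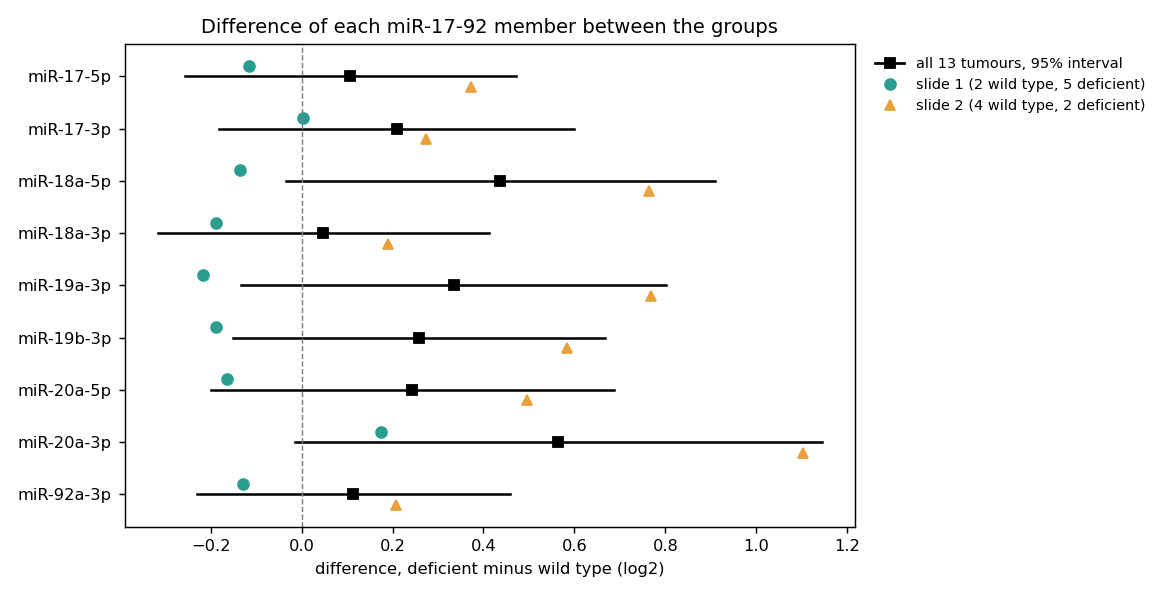
Squares with bars give the difference of each member between the groups, deficient minus wild type (log2), with its 95% interval over all 13 tumours, and circles and triangles the difference within slide 1 and slide 2. Every interval contains 0, all 9 triangles lie to the right of 0, and 7 of the 9 circles lie to its left.

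The spread within the groups is given as a description, with no test. In 8 of 9 members the SD was larger in wild-type than in deficient tumours, as it was for 63.7% of the tested miRNAs. The bright members vary together, so that they are not separate observations in this count. The median SD of the members was 0.395 in wild-type and 0.211 in deficient tumours, where over all tested miRNAs it was 0.554 and 0.472. For miR-18a-5p it was 0.54 against 0.11, and miR-20a-3p was the exception, at 0.47 against 0.51. The SD was also larger in wild-type tumours for the 6 tested miRNAs of the paralog clusters, for example miR-93-5p at 0.46 against 0.20 and miR-25-3p at 0.38 against 0.19.

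Without wild-type replicate 4 the median difference of the members was 0.116, and miR-17-5p differed by 0.03, miR-17-3p by 0.09, miR-20a-5p by 0.12, miR-19b-3p by 0.15 and miR-18a-5p by 0.32. Without wild-type replicate 2, the highest wild-type tumour for the 7 bright members, the median was 0.358. None passed the threshold in these fits either. Without scaling between arrays the median difference was 0.438 over the members and 0.218 over all tested miRNAs. Array weights gave a median of 0.061 and a higher mean in 6 of 9 members.

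Summed levels of markers of other cells are given beside this comparison, on the log2 scale. The 3 erythroid miRNAs summed to 12.29 to 16.08 (median 13.87) in wild-type and 14.29 to 16.36 (median 14.83) in deficient tumours. The 5 leukocyte miRNAs summed to 9.39 to 12.20 (median 10.497) and 9.70 to 11.99 (median 10.23). The 2 endothelial miRNAs summed to 10.57 to 11.48 (median 11.03) and 10.12 to 12.13 (median 11.75). The 4 skeletal muscle miRNAs summed to 7.35 to 11.81 and 6.50 to 13.14, and the 5 stromal ones to 9.96 to 11.37 and 9.69 to 11.12. The 6 neural ones summed to 12.78 to 13.85 and 12.69 to 13.42. Of these lists 2, 2, 1, 1, 3 and 6 miRNAs were detected on all 13 arrays, and 0 on none. All 3 erythroid miRNAs had a higher mean in deficient tumours, where 54.2% of the tested miRNAs did, with 0 erythroid miRNAs past the threshold. Their part in the levels of the members was not tested.

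Since the members are cut from a common transcript, their levels were compared across tumours. Over the 13 tumours, the 21 pairs of the 7 bright members had Pearson correlations of 0.635 to 0.960 with a median of 0.831. By comparison, miR-17-5p had a median correlation of 0.0615 with the 410 tested miRNAs that are not members (quartiles −0.248 and 0.325). Values of an array share its scaling factor, and its part in these correlations was not tested. The highest value, 0.960, was that of miR-19a-3p with miR-19b-3p, which differ at 1 base. How far the probes of such near-identical forms read each other was not tested. Nor was the part of the chromosome X copies in the levels of miR-19b-3p and miR-92a-3p. The lowest correlation of a bright member with miR-17-5p was 0.635 as reported, 0.414 with quantile normalization and 0.15 in the series matrix. It was 0.774 without scaling, where the overall brightness of an array enters every value.

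Of 10 relations tested by permutation, 8 passed an adjusted p of 0.05 over the 10, the pooled one of miR-18a-5p included. miR-20a-5p followed miR-17-5p with r = 0.849 (permutation p = 0.00024, adjusted p = 0.00165) and rho = 0.786 (permutation p = 0.00216, adjusted p = 0.0108), and r was 0.714 without the 2 tumours farthest from the median of miR-17-5p. The relation was r = 0.764 within slide 1 and 0.994 within slide 2. miR-19b-3p gave r = 0.834 (permutation p = 0.00033, adjusted p = 0.00165) and rho = 0.753 (permutation p = 0.00435, adjusted p = 0.0136), with 0.690 without the 2 farthest tumours, 0.776 within slide 1 and 0.965 within slide 2. For the partner arm miR-17-3p, r was 0.798 (permutation p = 0.00061, adjusted p = 0.00203) and rho 0.841 (permutation p = 0.00059, adjusted p = 0.0059), with 0.747 without the 2 farthest tumours, 0.885 within slide 1 and 0.886 within slide 2. Within the 6 wild-type and the 7 deficient tumours, r was 0.935 and 0.701 for miR-20a-5p, 0.869 and 0.836 for miR-19b-3p, and 0.92 and 0.56 for miR-17-3p. In deficient tumours alone the exact permutation p was 0.0171 for miR-19b-3p, 0.0895 for miR-20a-5p and 0.206 for miR-17-3p.

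The remaining bright members were compared in the same way. miR-19a-3p had r = 0.793 (permutation p = 0.00117, adjusted p = 0.00292) and rho = 0.736 (permutation p = 0.00546, adjusted p = 0.0136), with 0.664 without the 2 farthest tumours, 0.719 within slide 1 and 0.907 within slide 2. miR-92a-3p, from the last hairpin of the cluster, had r = 0.635 (permutation p = 0.0198, adjusted p = 0.0247) and rho = 0.648 (permutation p = 0.0192, adjusted p = 0.0274). Its r was 0.736 without the 2 farthest tumours, 0.831 within slide 1 and 0.703 within slide 2. In wild-type and deficient tumours r was 0.808 and 0.773 for miR-19a-3p (exact permutation p = 0.0556 and 0.0393). For miR-92a-3p it was 0.715 and 0.43 (exact permutation p = 0.131 and 0.337). For miR-18a-5p the tumours lay in separate sets, wild-type replicates 3, 4 and 6 against the other 10. Over those 10, chosen by the level of miR-18a-5p itself, r was 0.561 (permutation p = 0.0931) and rho 0.539 (permutation p = 0.116). Over all 13, where the split enters, r was 0.702 (permutation p = 0.00556, adjusted p = 0.00927) and rho was 0.714 (permutation p = 0.0081, adjusted p = 0.0162). Without the 2 tumours farthest from the median of miR-17-5p, r was 0.556 (permutation p = 0.0763). Slide 1 held none of the 3 low tumours, and r there was 0.808 (exact permutation p = 0.0254). It was 0.902 within slide 2, which held all 3. In wild-type and deficient tumours r was 0.79 and 0.804 (exact permutation p = 0.0694 and 0.0343).

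The dim arms were set against miR-17-5p and against their partner arms. mmu-miR-20a-3p followed its partner miR-20a-5p with r = 0.756 (permutation p = 0.0024, adjusted p = 0.0048) and rho = 0.654 (permutation p = 0.0192, adjusted p = 0.0274), at 0.76 without the 2 farthest tumours, 0.455 within slide 1 and 0.932 within slide 2. Its correlation with miR-17-5p was 0.641 (permutation p = 0.0187, adjusted p = 0.0247), with rho = 0.505 (permutation p = 0.0815, adjusted p = 0.102). That relation rested on few tumours, with r = 0.285 without the 2 farthest and −0.041 within slide 1. mmu-miR-18a-3p followed neither miR-17-5p (r = −0.0186, permutation p = 0.952, rho = 0.0659, permutation p = 0.836) nor its partner miR-18a-5p (r = 0.441, permutation p = 0.132, rho = 0.445, permutation p = 0.13) past the threshold.

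The relations were also computed without wild-type replicates 3, 4 and 6, a choice made after the values were seen, which by its construction narrows the range of the levels and the number of tumours. Over the other 10 tumours 0 of the 10 relations passed an adjusted p of 0.05 (smallest adjusted p = 0.0969 by permutation), and 4 had an unadjusted p under 0.05. The correlations with miR-17-5p were then 0.734 for miR-20a-5p, 0.724 for miR-19b-3p, 0.683 for miR-19a-3p, 0.656 for miR-17-3p and 0.522 for miR-92a-3p. Within slide 1 alone 0 of the 10 passed (smallest adjusted p = 0.0774 by exact permutation), and within slide 2 alone 7 did.

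**Figure D4:**
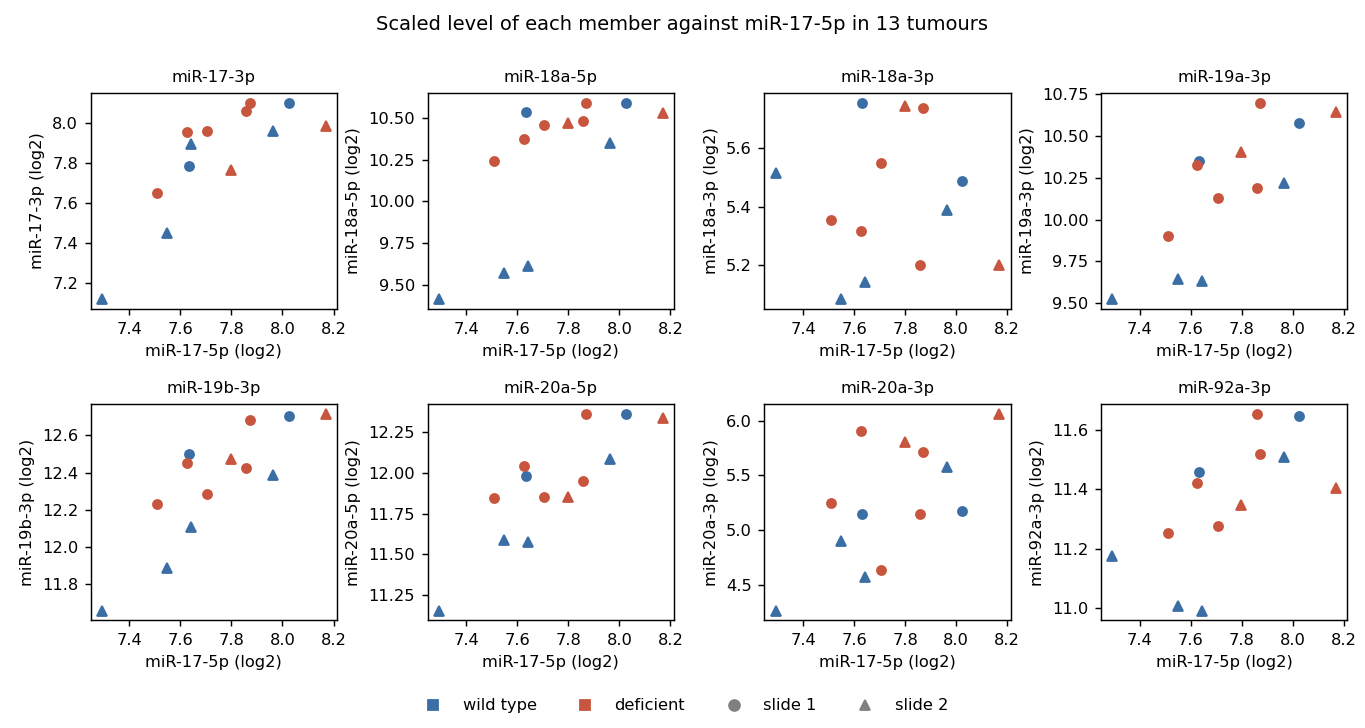
Each panel plots the scaled level (log2) of a member against that of miR-17-5p in the 13 tumours, with wild-type tumours in blue, deficient ones in red, slide 1 as circles and slide 2 as triangles. The points rise together for miR-20a-5p (r = 0.849) and miR-19b-3p (r = 0.834), split into a low set of 3 and a high set of 10 for miR-18a-5p, and show no trend for miR-18a-3p (r = −0.0186).

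Ratios between members were less variable than the members themselves for most forms. The SD of the level was 0.35 for miR-20a-5p and 0.32 for miR-19b-3p, and the SD of their log2 ratio to miR-17-5p was 0.19 and 0.18. For miR-18a-5p these values were 0.42 and 0.31, so that its ratio to miR-17-5p also moved between tumours, over a range of 0.93. For miR-18a-3p the ratio varied more than the level, at 0.34 against 0.23.

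The miRNAs most like the cluster were found by the correlation of each of the 410 other tested miRNAs with the average deviation of the members over the 13 tumours, which had a median of 0.0897. The 5 highest were miR-20b-5p (0.897), miR-532-5p (0.880), miR-411-3p (0.869), miR-130b-3p (0.866) and miR-3096b-3p (0.838). Within slide 1 and slide 2 these values were 0.910 and 0.916 for miR-20b-5p, 0.868 and 0.899 for miR-532-5p, 0.538 and 0.920 for miR-411-3p, 0.812 and 0.856 for miR-130b-3p, and 0.696 and 0.872 for miR-3096b-3p. Because they were chosen as the highest of many, these values describe the 13 tumours and carry no test.

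miR-20b-5p, the first of them, is encoded in the paralog cluster miR-106a-363 on chromosome X and shares the seed of miR-17-5p. Its sequence is printed because it is nearly that of members of the cluster.
miR-20b-5p: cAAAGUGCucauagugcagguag
It differed from miR-20a-5p at 2 of 23 bases (U1C and U10C, with the base of miR-20a-5p first) and from miR-17-5p at 2 of 23 bases (U10C and C12U, with the base of miR-17-5p first). The array detected miR-20b-5p in 13 tumours, while of the other forms of that cluster miR-18b-3p was detected in 7, miR-18b-5p in 1 and miR-20b-3p, miR-106a-3p, miR-363-3p, miR-363-5p, miR-19b-2-5p and miR-92a-2-5p in 0. How far its probes also read miR-20a-5p or miR-17-5p was not tested.

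The paralog clusters miR-106b-25 and miR-106a-363, which arose by duplication of this cluster, gave with miR-92b-3p and miR-92b-5p a list of 16 forms, of which 15 were found on the array and 6 were tested. None passed the threshold (0 of 6 at an unadjusted p under 0.05 as well, beside 3.82% of all tested miRNAs). A higher mean in deficient tumours held for 5 of the 6, beside 54.2% of all tested miRNAs. Of these, miR-106b-5p, miR-106b-3p, miR-93-5p and miR-25-3p all come from the miR-106b-25 cluster on chromosome 5, so that they are not separate observations. The median difference was 0.04 over all tested miRNAs and 0.263 over these 6. The differences were 0.37 (SE 0.19) for miR-25-3p, which has the seed of miR-92a-3p, and 0.29 (SE 0.20), 0.28 (SE 0.21) and 0.14 (SE 0.19) for miR-106b-5p, miR-93-5p and miR-20b-5p, which have the seed of miR-17-5p. miR-106b-3p differed by 0.25 (SE 0.23) and miR-18b-3p by −0.12 (SE 0.29). By likeness to the average of the cluster miR-93-5p ranked 6, miR-25-3p 12, miR-106b-5p 13 and miR-106b-3p 30 among the 410, and miR-18b-3p 237. The correlations behind these ranks were lower within slide 1, at 0.382 for miR-93-5p, 0.12 for miR-25-3p and 0.205 for miR-106b-5p. Within slide 2 they were 0.876, 0.826 and 0.828.

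A list of 29 miRNAs reported to be repressed by MYC, the opposite of its action on this cluster, had 28 tested members. By limma 0 of 28 passed the adjusted threshold and 1 an unadjusted p under 0.05, beside 0% and 3.82% of all tested miRNAs. Higher and lower means in deficient tumours were equal in number, at 14 and 14, where 54.2% of all tested miRNAs had a higher mean. The median difference was 0.04 over all tested miRNAs and −0.0044 over this list. The largest differences were −0.86 (SE 0.35) for miR-29b-3p and −0.53 (SE 0.25) for miR-29c-3p, and the 2 brightest, let-7c-5p and let-7b-5p, differed by −0.06 (SE 0.18) and −0.03 (SE 0.19).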

How the data were processed

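Spot intensity (linear, background-subtracted, detrended, unscaled between arrays, per the file headers) came from 13 scanner files. They name Feature Extraction 10.7.3.1, the submitters' processing notes 10.5.1.1. Detection and outlier marks, other values of yes or no, were used as deposited. The series matrix, used as an alternative, is on a log2 scale as deposited, with near-equal distributions (sorted columns differed by at most 0.00219). How it was made is not given in the sources used here.

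Each array had 47604 spots, 2164 of them controls that were left out; 0 were saturated. Unmarked spots gave a probe's average, and probes were added up per miRNA. Arrays were scaled to a shared 75th percentile, taken over the 294 mouse miRNAs found on every array. Values under a floor of 17.2 (percentile 1 of detected values) were set to it before log2. Groups were compared with limma 3.58.1 (R 4.3.3), two-sided, with Benjamini-Hochberg adjustment over 419 miRNAs and a threshold of 0.05. On simulated data of 419 miRNAs for this comparison, with 40 changed, it recovered 40% of changes of 1 and 95% of changes of 2 on the log2 scale. The simulated noise was independent between miRNAs and the changed ones were drawn from all 419. These shares therefore do not give the power for the members, which had smaller differences and of which the bright ones vary together. Correlations used 100000 two-sided permutations, or all of them within slides, adjusted over 10 relations. The number of arrays limits the precision. Alternatives covered scaling, background, probe summary, detection, floor, weights, slide, replicate number, the series matrix and each tumour left out.

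Named miRNAs were the 9 members, the 5 most like their average, tested paralogs, and of the list of MYC-repressed miRNAs the 2 brightest and the 2 with the largest differences. miR-106a-5p and the erythroid miR-486-5p were not found under those names and are not analysed here. The members, lists and rules were chosen with earlier results of these data known.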

Additional observations from a re-analysis of the deposited data

How the results depend on the processing

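In every setting run, 0 tested miRNAs and 0 members passed the adjusted threshold in limma (7 to 63 and 0 to 2 at an unadjusted p under 0.05). Where the slide interaction was refitted, 0 members passed (0 to 4 unadjusted). The median difference of the members was −0.1352 within slide 1 alone, on 2 wild-type and 5 deficient tumours, and 0.0607 to 0.496 in the other settings. A higher mean in deficient tumours held for 9 of 9 members over all tumours, for 6 with array weights, 7 at 4 times the floor, 7 with normexp background, 8 with slide as a block, 2 within slide 1 alone and 8 to 9 with 1 tumour left out. Signs turned within slide 1 alone for miR-17-5p (−0.1149), miR-18a-5p (−0.1352), miR-18a-3p (−0.1889), miR-19a-3p (−0.2174), miR-19b-3p (−0.1885), miR-20a-5p (−0.1635) and miR-92a-3p (−0.128). With array weights they turned for miR-17-5p (−0.001155), miR-18a-3p (−0.05472) and miR-92a-3p (−0.02112), and with normexp background for miR-18a-3p (−0.08522) and miR-20a-3p (−0.03174). miR-18a-3p was −0.005991 with slide as a block and with 1 tumour left out its lowest value was −0.01423 (wild-type 6) and its highest 0.1198 (wild-type 1), with −0.002432, −0.00198 and −0.001081 for wild-type 3 and deficient 4 and 5. The cause of these turns was not tested. Of 10 correlations, 8 passed over all tumours, 4 with normexp background, 0 within slide 1 alone, 0 over the 10 tumours chosen after seeing the data, and 7 to 8 with 1 tumour left out. With 4 times the floor the dim arms were constant and 4 of the relations had no value. Of the 5 miRNAs most like the cluster, 3 stayed among the highest 5 with quantile normalization, with the 75th percentile over all mouse miRNAs, with normexp background, with 4 times the floor and with the series matrix, and 3 to 5 with 1 tumour left out (3 for wild-type 4 and 6 and deficient 2 and 7). The replicate numbers of the labels did not pair the tumours: the deviations of same-numbered tumours correlated at −0.22 to 0.194, with 3 of 6 pairs above 0.1 and 0 tumours closest to their own number. A replicate block, without deficient replicate 7, gave 0 calls and a median difference of 0.2754.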
